A study of Bos taurus with 22 samples.

Results

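The skeletal muscle sarcomere and contraction genes measured here are 38 genes that encode the contractile filaments of striated muscle, the proteins that anchor and regulate them, and the enzymes and calcium pump that supply contraction. Members were taken by symbol: each probe set (a group of short probes for 1 transcript) whose single gene symbol in the array annotation was one of the 38 was included. That gave 56 of the 24128 probe sets on the array, for 31 of the 38 genes. Of the 56, 3 are control probe sets of the array maker for bovine actin that are annotated as ACTA1. No probe set carried the single symbol MYH2, MYBPC2, CASQ1, TNNI1, TTN, RYR1 or TRIM63, so no value is given for these 7 genes. The members comprise 14 genes typical of fast fibres (11 with a probe set), 8 typical of slow fibres (7 with a probe set) and 16 that both use or that were given to neither class (13 with a probe set), here called shared.

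In the study, dorsal white adipose tissue from under the skin was taken from 11 Holstein heifers around their first calving, which they reached at 24 to 28 months of age. Each heifer was sampled 14 days postpartum, in early lactation, and 30 days prepartum, in late pregnancy, which gave 11 postpartum and 11 prepartum arrays. All animals came from one farm, no diet was tested, and the ration changed with calving. Each array is 1 tissue sample of 1 heifer, with all its cell types together.

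Skeletal muscle contracts when calcium released inside the fibre binds troponin, which moves tropomyosin along the actin filament and lets myosin heads pull on it. Fast and slow fibres build this machine from different members of the same gene families, so that myosin heavy and light chains, troponin subunits and calcium pumps exist in fast and slow forms. Adipose tissue is not known to assemble sarcomeres. Some family members, among them TPM1, TPM2, TPM3 and DES, are also used by smooth muscle or by the cytoskeleton of other cells.

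The deposited values were linear signal intensities, scaled by the authors so that each array had the same trimmed mean. Levels are therefore compared for the same probe set between arrays, never between probe sets. A signal was converted to log2(signal + 7.78), and its level above the probe set's own median over the 22 arrays was taken. A probe set was called raised in an array when it stood at least 2 log2 units above that median. The pair labelled cow 387 was in doubt, because its 2 arrays did not resemble each other as the arrays of the other 10 cows did. Results that use it are therefore also given without it. The part of the muscle genes themselves in that lack of resemblance was not tested. The number of arrays, and not a read depth, limits the precision.

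The sarcomere genes were high in a few of the 22 arrays and low in the rest. Among the 53 member probe sets that are not controls, 39 were raised in the sample taken postpartum from cow 384, 27 in postpartum cow 386 and 8 in postpartum cow 382, against 38 in the sample labelled prepartum cow 387 and 25 in prepartum cow 384. No member probe set was raised in any of the other 17 arrays, where the largest level above a probe set's median was 1.55. Over all 24016 bovine probe sets, the raised share was 2.41% in postpartum cow 384, 0.221% in postpartum cow 386, 0.3% in postpartum cow 382, 0.883% in prepartum cow 387 and 0.175% in prepartum cow 384. Over the 14410 bovine probe sets that passed a filter on dim signals it was 2.33%, 0.194% and 0.326% in those postpartum arrays, against 0.708% and 0.153% in those prepartum arrays. The median member level above its own median was 7.41 in postpartum cow 384, 2.58 in postpartum cow 386 and 0.60 in postpartum cow 382, against 5.63 in prepartum cow 387 and 1.55 in prepartum cow 384. In bulk tissue, the number of muscle cells in a sample and the RNA content of each cannot be told apart.

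The 39 raised probe sets of postpartum cow 384 belonged to 29 of the 31 measured genes, and TPM1 and TPM3 were the exceptions. Summed over the 53 probe sets, the signal was 241576 in postpartum cow 384, 25613 in postpartum cow 386 and 8801 in postpartum cow 382, against 135607 in prepartum cow 387 and 18783 in prepartum cow 384. In the other 17 arrays the sum lay between 6397 and 10014, so the sum of postpartum cow 382 did not stand outside them. The high arrays did not follow calving: cows 384 and 386 were high after it, the array labelled cow 387 was high before it, and cow 384 was high at both times. Without the array labelled cow 387, the high arrays were 2 postpartum and 1 prepartum.

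**Figure D1:**
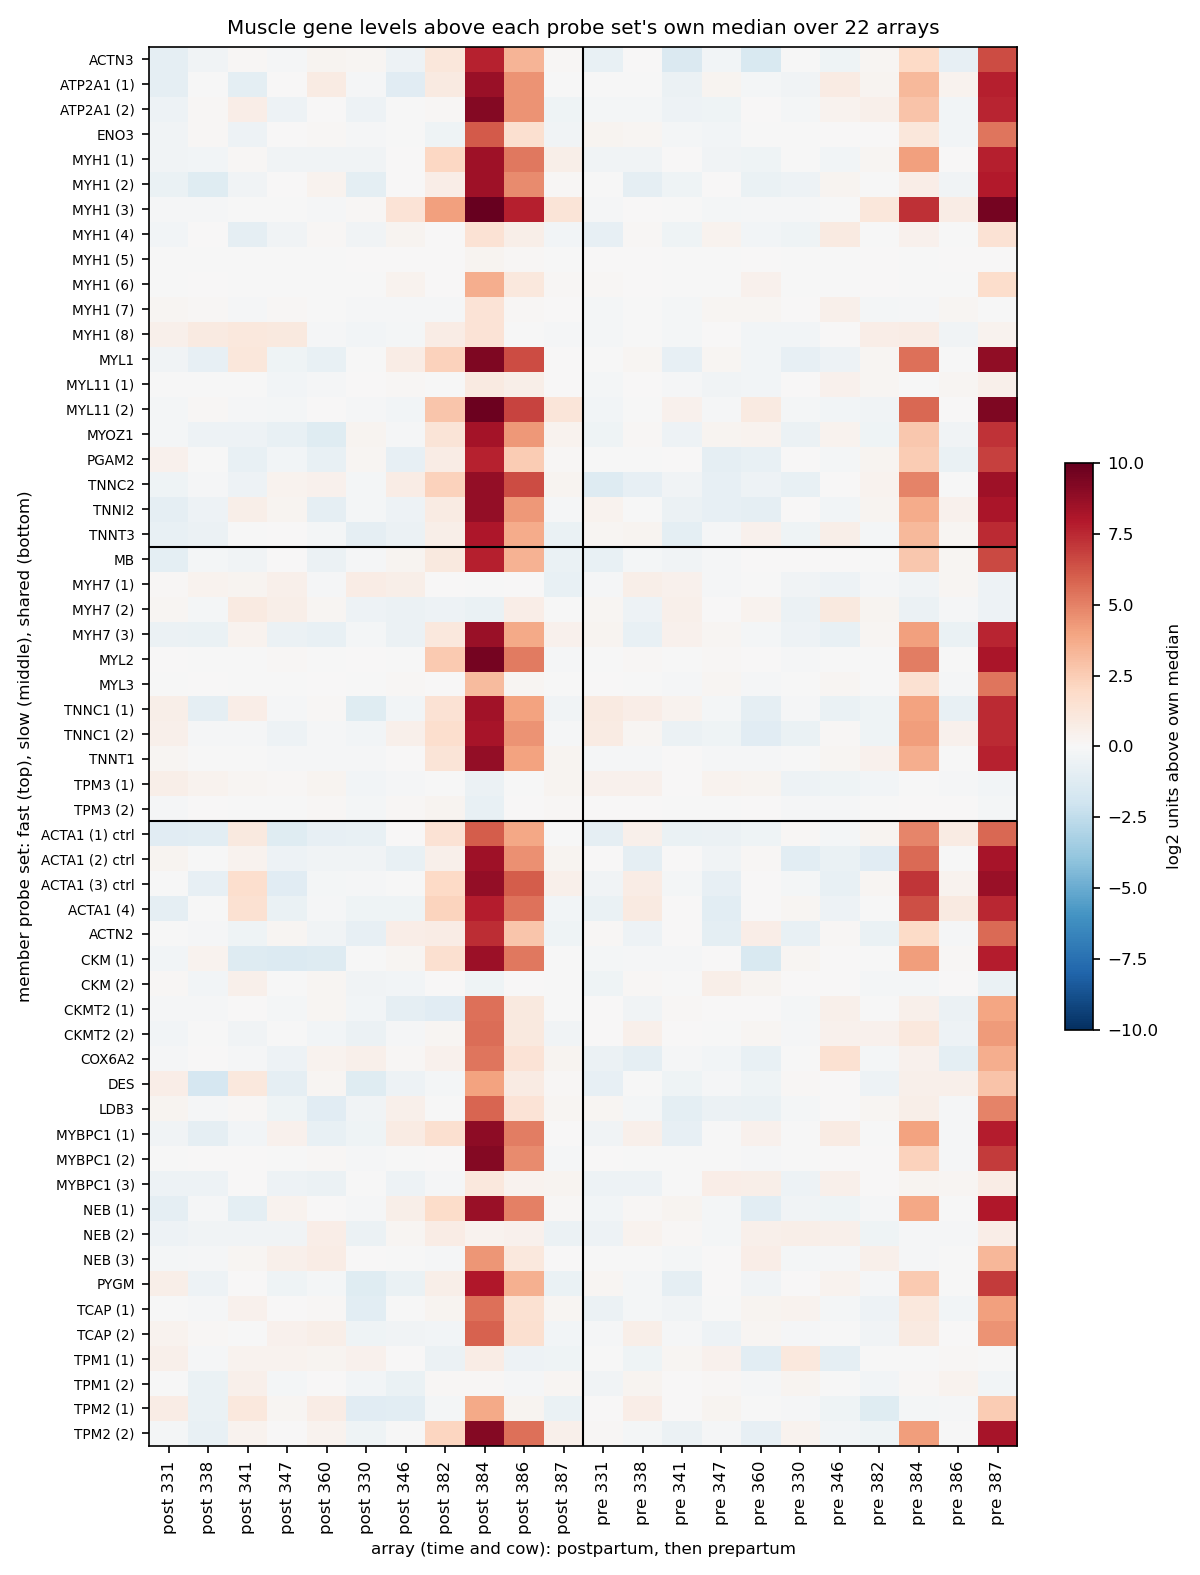
Level of each member probe set (rows, grouped into fast, slow and shared genes) above its own median over 22 arrays, in log2 units by colour, in each array (columns, 11 postpartum on the left and 11 prepartum on the right). The postpartum arrays of cows 384 and 386 and the prepartum arrays of cows 387 and 384 stand out, and the rows of TPM1 and TPM3 stay pale throughout.

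Among the fast genes was the heavy chain MYH1, the motor protein of fast fibres. One of its probe sets read 9161, 1994 and 147 in postpartum cows 384, 386 and 382. It read 6812 and 1453 in prepartum cows 387 and 384. The other 17 arrays read 0.248 to 16.1. All 5 named arrays thus lay above the rest for this probe set. MYH1 has 8 probe sets, and they did not behave alike. The probe set with the highest mean log2 value over the 22 arrays was another. It read 8230, 596 and 27.8 in postpartum cows 384, 386 and 382, against 5382 in prepartum cow 387. In prepartum cow 384 it read only 28.6, close to the 20.6 that was the highest of the other 17 arrays. Of the remaining probe sets, 4 were raised in no array.

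The fast light chains followed the heavy chain. MYL1, the alkali light chain of fast myosin, read 9713, 1412 and 67.8 in postpartum cows 384, 386 and 382, against 7325 and 674 in prepartum cows 387 and 384, while the other 17 arrays read 0.738 to 26.5. MYL11, the fast regulatory light chain, had a probe set at 9117, 1113 and 64.5 in the same postpartum arrays, against 6571 and 557 in the same prepartum arrays. For both, the 5 named arrays were above the others.

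All 3 fast troponin subunits were raised in the same 4 arrays. TNNC2, the calcium-binding subunit, read 9651, 1997 and 100.2 in postpartum cows 384, 386 and 382, against 7520 and 644 in prepartum cows 387 and 384, with 1.05 to 29.0 in the other 17. TNNI2, the inhibitory subunit, read 7149 and 325 in postpartum cows 384 and 386, against 4658 and 204 in prepartum cows 387 and 384. TNNT3, which ties troponin to tropomyosin, read 8917 and 425, against 5674 and 297, in the same arrays. In postpartum cow 382, TNNC2 stood above the other 17 arrays, whereas TNNI2 at 21.1 and TNNT3 at 42.2 exceeded the highest of them (17.4 and 40.8) only narrowly.

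The other fast genes were the calcium pump ATP2A1, the Z-disc proteins ACTN3 and MYOZ1 and the glycolytic enzymes PGAM2 and ENO3. ATP2A1, which returns calcium to its store in fast fibres, read 7651 and 425 in postpartum cows 384 and 386, against 4007 and 173 in prepartum cows 387 and 384, with at most 25.0 in the other 17. ACTN3, the alpha-actinin of fast fibres, read 7738 and 401 against 3569 and 145 in the same arrays, with at most 37.6 elsewhere apart from 75.4 in postpartum cow 382. ENO3 had a higher base, 50.8 to 90.7 in the other 17 arrays, and was raised only in postpartum cow 384 (5674) and prepartum cow 387 (3371), although its 241 in postpartum cow 386 and 167 in prepartum cow 384 also lay above that range.

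Slow genes were raised in the same arrays. MYH7, the slow myosin heavy chain, which the heart also uses, had a probe set at 6003, 192 and 22.9 in postpartum cows 384, 386 and 382, against 2901 and 243 in prepartum cows 387 and 384, with 1.10 to 11.9 in the other 17. MYL2, the slow regulatory light chain, read 6821, 327 and 48.1, against 2517 and 308, with at most 2.07 elsewhere. TNNT1, the slow troponin that binds tropomyosin, read 4062 and 135 in postpartum cows 384 and 386, against 1831 and 106 in prepartum cows 387 and 384, with at most 4.37 in the 17. MB, the oxygen store myoglobin, read 7704 and 372, against 3283 and 209. In each of these 4 genes, the 4 high arrays lay above all others.

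MYL3, the alkali light chain of slow and ventricular myosin, departed from this order. It read 75.6, 2.71 and 1.63 in postpartum cows 384, 386 and 382, against 373 and 19.4 in prepartum cows 387 and 384, with 0.578 to 2.88 in the other 17 arrays. Of the 42 member probe sets raised in postpartum cow 384, controls included, 41 were highest in that array, and MYL3 was the exception, being highest in prepartum cow 387. Its reading in postpartum cow 386 lay within the range of the 17 low arrays. MYL3 is represented by a single probe set.

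Among the shared genes, ACTA1 encodes the actin of the skeletal muscle thin filament. Its probe set read 9240, 1696 and 180 in postpartum cows 384, 386 and 382, against 7696 and 3437 in prepartum cows 387 and 384, with 11.9 to 108 in the other 17. Unlike most members, it was higher in prepartum cow 384 than in postpartum cow 386, and the 3 actin control probe sets had the same order. CKM, the muscle creatine kinase, had a probe set at 9852 and 988 in postpartum cows 384 and 386, against 6075 and 470 in prepartum cows 387 and 384. NEB, the ruler protein of the thin filament, read 7609 and 598 against 4799 and 266, and PYGM, the muscle enzyme that breaks down glycogen, read 8599 and 376 against 4167 and 191, in the same arrays. MYBPC1, a myosin-binding protein C of skeletal muscle, had a probe set at 7719, 563 and 39.9 in postpartum cows 384, 386 and 382, against 3708 and 255 in prepartum cows 387 and 384, with 0.837 to 21.3 in the other 17. Of its other 2 probe sets, 1 was raised in the 4 high arrays and the other in none.

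Other shared genes belong to the Z-disc and to mitochondria. ACTN2, the main alpha-actinin of the Z-disc, read 3030 and 117 in postpartum cows 384 and 386, against 872 and 59.3 in prepartum cows 387 and 384, with at most 21.1 elsewhere. LDB3, a Z-disc adaptor, read 2013 and 83.2 against 1109 and 45.9, with at most 41.5 elsewhere. TCAP, which caps titin at the Z-disc, read 4373 and 275 against 1676 and 196 in the same arrays with 1 of its 2 probe sets, over 38.9 to 125 in the 17 low arrays. COX6A2, the muscle form of a cytochrome oxidase subunit, read 763 in postpartum cow 384 and 221 in prepartum cow 387, while its 41.0 in postpartum cow 386 and 17.4 in prepartum cow 384 lay under the 46.5 that was the highest of the 17 low arrays. LDB3, TCAP, COX6A2 and CKMT2, the mitochondrial creatine kinase of muscle, were raised in postpartum cow 384 and prepartum cow 387 alone, and ACTN2 also in postpartum cow 386.

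The order of the 4 arrays was the same for most genes. Of the 42 raised probe sets, 34 ran from postpartum cow 384 through prepartum cow 387 and postpartum cow 386 to prepartum cow 384. The 8 exceptions all had prepartum cow 384 above postpartum cow 386; they were the 4 probe sets of ACTA1 and 1 each of MYL3, MYH7, TNNC1 and CKMT2. In 32 of the 53 member probe sets these 4 arrays lay above the other 18, against 92 of all 24016 bovine probe sets, or 0.383%. The fifth highest array was postpartum cow 382 in 27 of the 42. The 42 were chosen as raised in postpartum cow 384, so a high place of that array is partly fixed by the choice. Neither the order of the 4 arrays nor the fifth place was counted over all bovine probe sets.

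To compare how much of the signal each array held, the linear signal above a probe set's own median was expressed as a percentage of that in postpartum cow 384. Over the 39 raised probe sets, the median share was 4.50% in postpartum cow 386 and 0.33% in postpartum cow 382, against 48.3% in prepartum cow 387 and 2.47% in prepartum cow 384. Shares in prepartum cow 387 ran from 20.5%, in 1 of the MYH1 probe sets, to 83.2% for ACTA1, with MYL3 apart at 501%. ACTA1 had 18.1% in postpartum cow 386, against 37.0% in prepartum cow 384, the largest share there. TNNC2 had the largest share of a fast gene in prepartum cow 387, 77.9%. The highest signal of any probe set lay between 7645 and 12550 over the 22 arrays, so several members of postpartum cow 384 were near the top of the scale, and whether the scale's end moved these shares was not tested.

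**Figure D2:**
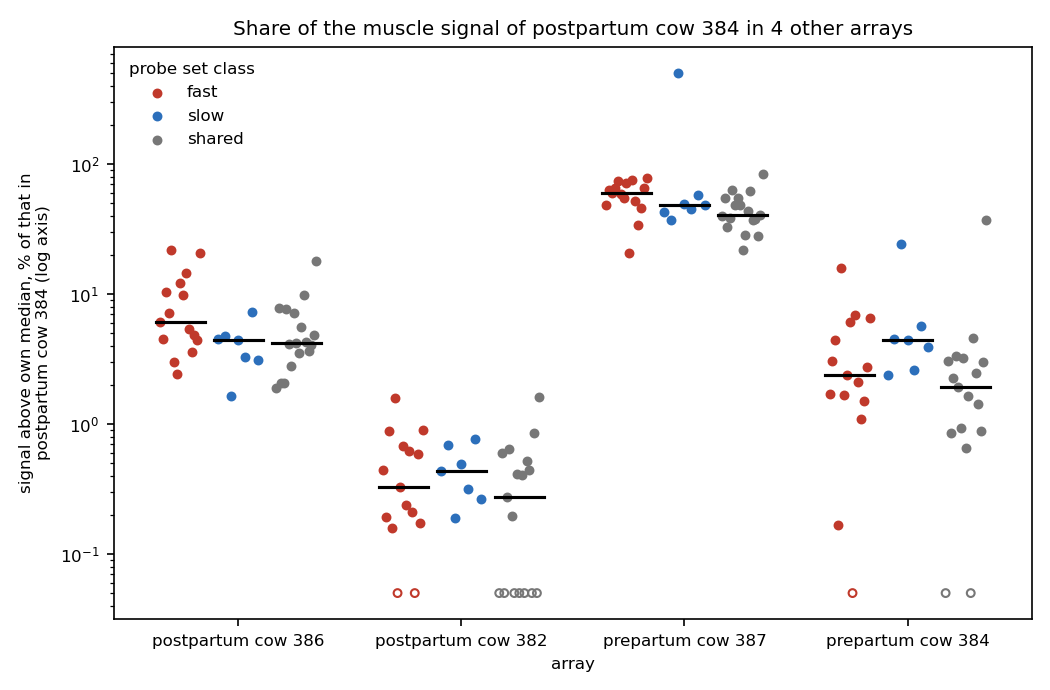
Signal above own median in 4 arrays as a percentage of that in postpartum cow 384 (log axis), with 1 point for each member probe set raised there, split into fast, slow and shared genes; black lines mark class medians, and open points on the lowest line stand for values under 0.05%, which include values below 0. Points of postpartum cow 386 lie between 1.65% and 21.7%, and those of prepartum cow 387 between 20.5% and 83.2%, with MYL3 at 501%.

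Fast and slow genes were compared within each array, as a description with no test, since the genes are not replicates. With 1 probe set for each gene, the median level above own median of 11 fast genes minus that of 7 slow genes was 0.49 log2 units in postpartum cow 384 and 0.85 in postpartum cow 386, against 0.86 in prepartum cow 387 and 0.00 in prepartum cow 384. The fast median was 8.30 and the slow median 7.81 in postpartum cow 384, and they were 2.66 each in prepartum cow 384. In postpartum cow 382 the difference was -0.17, inside the -0.50 to 0.22 seen over the 17 low arrays. In these medians the fast gene MYL11 and the slow genes MYH7 and TPM3 enter with probe sets that were flat in all arrays. When each gene was given its probe set with the widest range instead, a choice made after the values were seen, the difference was 0.24 in postpartum cow 384, 0.57 in postpartum cow 386 and 0.08 in postpartum cow 382, against 0.31 in prepartum cow 387 and -0.39 in prepartum cow 384. All of these differences are small beside the spread of the genes within an array, whose SD was 3.21 in postpartum cow 384 and 1.91 in prepartum cow 384.

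The shares told the same arrays apart. Fast probe sets had a median share of 6.04% in postpartum cow 386, against 60.2% in prepartum cow 387 and 2.38% in prepartum cow 384. Slow probe sets had 4.43% in postpartum cow 386, against 48.3% in prepartum cow 387 and 4.44% in prepartum cow 384. Shared probe sets had 4.18%, against 40.7% and 1.94%, in the same arrays. The fast class therefore held a larger share in postpartum cow 386 than in prepartum cow 384, and the slow class held nearly equal shares in those arrays.

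That contrast was also expressed as a ratio, prepartum cow 384 over postpartum cow 386, in the 25 probe sets raised in both arrays, a description chosen after the shares had been seen. The median ratio was 0.45 over 12 fast probe sets, 0.86 over 6 slow probe sets and 0.45 over 7 shared probe sets. These medians depend on the class given to each gene. MYBPC1, counted as shared although its relative MYBPC2 was counted as fast, had 0.45 and 0.16, under the lowest slow ratio. Fast ratios ran from 0.28 for MYOZ1 to 0.99 for PGAM2, and slow ratios from 0.53 for MB to 1.28 for MYH7, so the classes overlapped. The troponin C genes showed the contrast in the same protein, with 0.32 for TNNC2, the fast form, and 0.78 for TNNC1, the slow form, whose other probe set read nearly the same in both arrays. The troponin T genes differed less, with 0.68 for the fast TNNT3 and 0.78 for the slow TNNT1. The regulatory light chains had 0.50 for MYL11 and 0.94 for MYL2. Among the heavy chains, MYH1 had 0.43 and 0.73, against 1.28 for MYH7. ACTA1 stood above both classes at 2.05. These are single arrays from different cows, so the ratios have no replicate error.

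**Figure D3:**
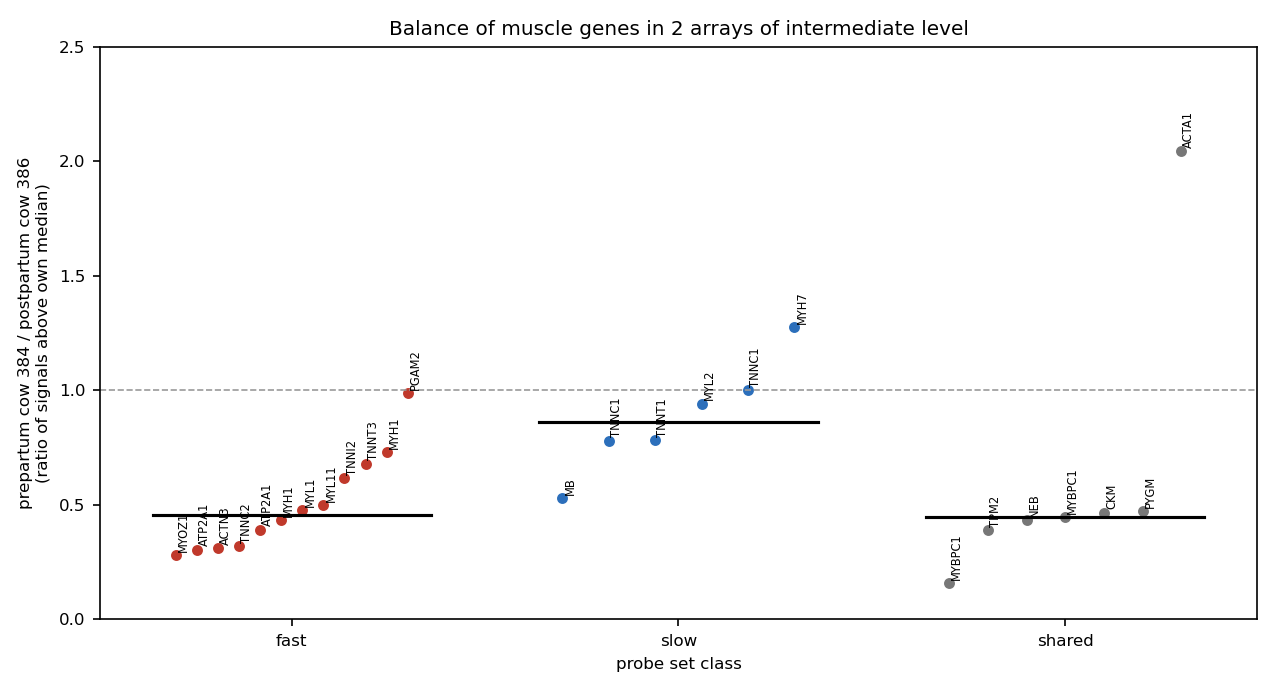
Ratio of the signal above own median in prepartum cow 384 over that in postpartum cow 386 for the 25 member probe sets raised in both, by class, with black lines at the class medians and a dashed line at a ratio of 1. Most slow genes sit nearer to 1 than most fast genes, MB and PGAM2 lie with the other class, and ACTA1 is at 2.05.

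Some members stayed flat. TPM1, a tropomyosin found in striated and smooth muscle, read 1111 to 2421 postpartum (median 1711) and 1393 to 2155 prepartum (median 1766) with 1 of its 2 probe sets, and the most that either stood above its own median in any array was 1.04. TPM3, the slow tropomyosin, which other cells make as a cytoskeletal form, read 837 to 1644 postpartum (median 1399) and 1232 to 1448 prepartum (median 1372). Its lowest reading was that of postpartum cow 384, and neither of its 2 probe sets stood more than 0.61 above its own median. In the arrays where other slow genes were raised, TPM3 thus showed no matching level.

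For CKM, MYH7 and MYL11, probe sets of the same gene disagreed. In each, the probe set with the highest mean log2 value over the 22 arrays, which stands for the gene in the medians by gene, was flat, at most 0.55, 0.74 and 0.88 log2 units above its own median, while another probe set of the same symbol reached 8.59, 8.67 and 9.78. The flat MYH7 probe set read 471 to 1367 postpartum and 575 to 1208 prepartum, and its reading of 782 in postpartum cow 384 lay inside that range. Which probe set follows the annotated transcript was not tested. In all, 9 of the 53 member probe sets never stood 1 log2 unit above their own median, and 14 were raised in no array.

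DES and TPM2 lay between these patterns. DES, the intermediate filament protein of all muscle types, read 168 to 9033 postpartum (median 610) and 306 to 4000 prepartum (median 520). Only postpartum cow 384 and prepartum cow 387 exceeded the 1136 that was the highest of the 17 low arrays, while postpartum cow 386 (961) and prepartum cow 384 (803) did not. TPM2, the beta tropomyosin of muscle, showed the same with 1 of its probe sets, at 7400 in postpartum cow 384 and 3279 in prepartum cow 387. Its other probe set was raised in postpartum cows 384, 386 and 382 (9353, 738 and 64.9) and in prepartum cows 387 and 384 (5084 and 293), against at most 15.0 elsewhere.

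The comparison the study was designed for, postpartum against prepartum within each cow, was fitted with limma over the 14410 probe sets that passed the filter, with Benjamini-Hochberg adjustment over all of them. Of these, 494 passed an adjusted p of 0.05, which is 3.43%. None of the 30 member probe sets that were kept, for 23 genes, passed, and none had an unadjusted p under 0.05, against 19.8% of all kept probe sets; the lowest adjusted p was 0.327, for the flat MYH7 probe set. The changes ran from -0.15 to 0.82 log2 units, with a median of 0.17 against 0.01 over all kept probe sets. Their median standard error was 0.77, against 0.12 over all kept probe sets, so a change of the size of many called genes was not detectable in most members. Of the 30, 17 were kept only because of the high arrays: by the mean of the other 8 cows, 13 probe sets of 10 genes would have passed the filter.

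ACTA1 averaged 6.62 ± 2.86 log2 units postpartum and 6.59 ± 2.91 prepartum (SD, n = 11 each), a change of 0.03 (SE 0.77, limma adjusted p = 0.991). MYH1, by the first probe set described above, averaged 5.38 ± 3.57 postpartum and 4.84 ± 3.42 prepartum, a change of 0.54 (SE 0.92, limma adjusted p = 0.789). The cows behind these means moved in opposite directions. ACTA1 changed by 4.52 in cow 386 and 1.42 in cow 384, and by -7.87 in cow 387. MYH1 changed by 7.03 in cow 386, 2.65 in cow 384 and -8.29 in cow 387. The slow genes TNNC1 and MB had changes of 0.39 and 0.14, each with the same opposition between these cows. TPM1, by the probe set described above, and the flat members had standard errors under 0.2 and changes of at most 0.25 in size, with TPM1 at -0.09 (SE 0.13, limma adjusted p = 0.757).

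**Figure D4:**
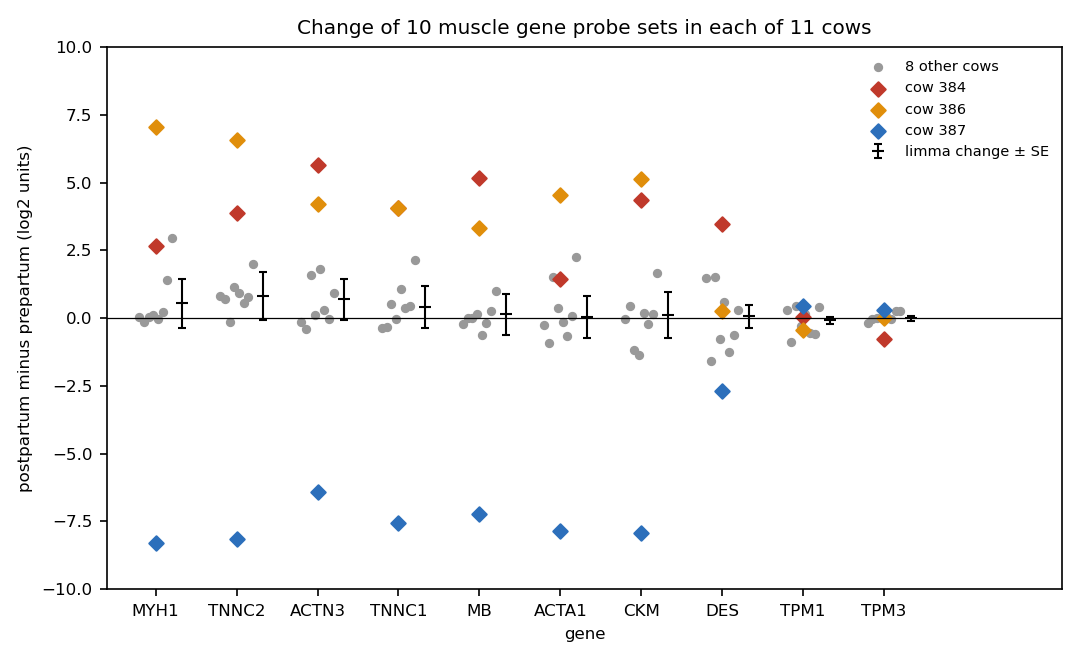
Postpartum minus prepartum level in log2 units for 10 member probe sets in each of 11 cows, with cows 384, 386 and 387 in colour and the limma change with its standard error beside them. In the genes left of DES, cows 384 and 386 lie above 0 and cow 387 lies below -6, while the points of TPM1 and TPM3 lie within 1 unit of 0.

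With cows 384, 386 and 387 left out, 1 of the 30 member probe sets passed, TNNC2, which rose by 0.85 log2 units (SE 0.21, limma adjusted p = 0.0328, n = 8 cows) and was higher postpartum in 7 of the 8 cows. In that fit 6.59% of all kept probe sets passed, and 3.22% of all kept probe sets passed upward. The readings behind it were dim, 7.18 to 100.2 postpartum and 1.05 to 19.1 prepartum in those 8 cows, near the added constant of 7.78, and the highest was again cow 382. TNNC2 is among the 17 probe sets kept only because of the high arrays: by the mean of these 8 cows it would not have been tested. Over all 11 cows TNNC2 changed by 0.82 (SE 0.89, limma adjusted p = 0.654) and was higher in 9. With cows 384 and 387 alone left out, no member passed in a fit where 7.43% of all kept probe sets passed and 3.62% passed upward, and 3 members had an unadjusted p under 0.05 against 23.9% of all kept probe sets. With the doubtful pair of cow 387 alone left out, no member passed, against 4.31% of all kept probe sets, and 8 members had an unadjusted p under 0.05, against 20.8%. The lowest adjusted p was then that of TNNC2, with a change of 1.72 log2 units (SE 0.52, limma adjusted p = 0.0822, n = 10 cows). MYH1 changed by 1.43 and ACTA1 by 0.82 in that fit. The difference of the change between the 2 sets of arrays that the sample titles mark passed for no member (lowest limma adjusted p = 0.997) and for none of the 14410, of which 3.58% had an unadjusted p under 0.05.

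Genes that work with the sarcomere but are not members were raised mainly in postpartum cow 384 and prepartum cow 387. Of 18 measured genes of the Z-disc, M-band and membrane anchorage, 16 were raised in postpartum cow 384 and 14 in prepartum cow 387. Among the 11 of them that passed the filter, 9 were raised in postpartum cow 384 and 1 in postpartum cow 386. In prepartum cows 387 and 384 the counts were 7 and 0. MYOT, a Z-disc protein, read 6671 and 322 in postpartum cows 384 and 386, against 2424 and 94.1 in prepartum cows 387 and 384, with at most 7.89 in the 17 low arrays. KLHL41, which stabilises thin filament proteins, read 4898 and 362, against 2552 and 114, with at most 17.7 elsewhere. Both thus had the 4 high arrays above the rest, in the members' order.

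Of 8 measured regulators of muscle development, 4 were raised in postpartum cow 384 and the same number in prepartum cow 387. They were MYF6, MYOD1 and MYOG, transcription factors of the muscle lineage, and MSTN, the secreted brake on muscle growth. MYF6 read 1850 and 70.4 in postpartum cows 384 and 386, against 405 and 22.4 in prepartum cows 387 and 384, with 6.08 to 25.2 in the other 17. MYOD1 read 224 and 9.81 against 80.3 and 12.9, so only the 2 highest arrays exceeded the 15.2 of the low arrays. Of 9 calcium handling genes, 5 were raised in postpartum cow 384, among them SLN, the peptide that restrains the calcium pump, at 8117 and 839 in postpartum cows 384 and 386 against 5102 and 179 in prepartum cows 387 and 384. JPH1, which joins the calcium store to the surface membrane, read 1549 and 41.4 against 786 and 31.2, with at most 33.5 elsewhere.

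Muscle energy genes and the nerve contact followed less fully. Of 11 energy genes, 5 were raised in postpartum cow 384 and 3 in prepartum cow 387. FBP2, the muscle fructose bisphosphatase, read 2614 and 737 in these arrays, with at most 25.4 in the 17 low arrays, and PFKM, the muscle phosphofructokinase, read 5899 and 2235, with at most 109. Of 5 acetylcholine receptor subunits, 3 were raised in postpartum cow 384 and none in prepartum cow 387, with CHRNA1 at 353 and 152, against at most 89.5, and CHRNB1 at 420 and 211, against at most 141. Of 6 developmental and cardiac forms, ACTC1 and MYH8 were raised in postpartum cow 384 and none in prepartum cow 387. ACTC1, the cardiac actin, read 670 and 67.0, and MYH8, the perinatal myosin, read 34.1 and 8.34.

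Smooth muscle and nonmuscle contractile genes did not reach the level counted as raised. None of 8 smooth muscle genes and none of 9 nonmuscle genes stood 2 log2 units above its median in any of the 4 high arrays. TPM2, a raised member that smooth muscle also uses, was left out of the smooth muscle list, and its readings are given above. The median of the smooth muscle list was 0.75 in postpartum cow 384 and 0.10 in prepartum cow 387, against -0.62 to 0.60 over the 17 low arrays, so the first lay above that range. The median of the nonmuscle list was -0.13 and -0.04, against -0.24 to 0.30. LMOD1, a smooth muscle actin nucleator, was 1.51 above its median in postpartum cow 384 and 1.08 above in prepartum cow 387, and SMTN, smoothelin, 1.39 and 0.54. MYH10 and MYL12A, the nonmuscle genes farthest above their median in postpartum cow 384, were 0.55 and 0.27 above in postpartum cow 384, and 0.50 above and 0.08 below in prepartum cow 387.

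Most adipocyte genes were below their own median in the array where the sarcomere genes were highest. Of 14 measured adipocyte genes, 9 lay at least 1 log2 unit below their own median in postpartum cow 384 and 1 did so in prepartum cow 387, with list medians of -1.60 and -0.49. Over the 17 low arrays the list median lay between -0.68 and 0.46. The median over all kept probe sets was -0.18 in postpartum cow 384 and -0.02 in prepartum cow 387. How many of all kept probe sets lay at least 1 unit below their median was not counted. Among kept genes of other cell types, 3 of 7 endothelial and 1 of 10 fibroblast genes lay that low in postpartum cow 384. Their summed signal was 17563 in postpartum cow 384, 37243 in postpartum cow 386 and 27412 in postpartum cow 382, against 26024 in prepartum cow 387 and 37466 in prepartum cow 384, with 21385 to 39059 in the other 17. None of them was at 0: ADIPOQ, the adipocyte hormone adiponectin, read 736 in postpartum cow 384 and 1339 in prepartum cow 387, against 1408 to 3144 in the 17, and FABP4, the fat cell's fatty acid carrier, read 7625 and 7695 against 6246 to 11532. LEP, leptin, read 23.9, 104 and 70.2 in postpartum cows 384, 386 and 382, against 220 and 539 in prepartum cows 387 and 384, with 52.9 to 938 in the other 17. GPD1, an enzyme that makes glycerol phosphate, was 0.77 above its median in postpartum cow 384. Over all 11 cows, 4 of the 14 adipocyte genes were called lower postpartum and none higher, against 3.43% of all kept probe sets called in either direction. They were LEP, with a change of -1.78 (SE 0.40, limma adjusted p = 0.0268), LPL with -1.18, GPD1 with -0.93 and AGPAT2 with -0.90. The part of these shifts in the muscle gene values was not tested.

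**Figure D5:**
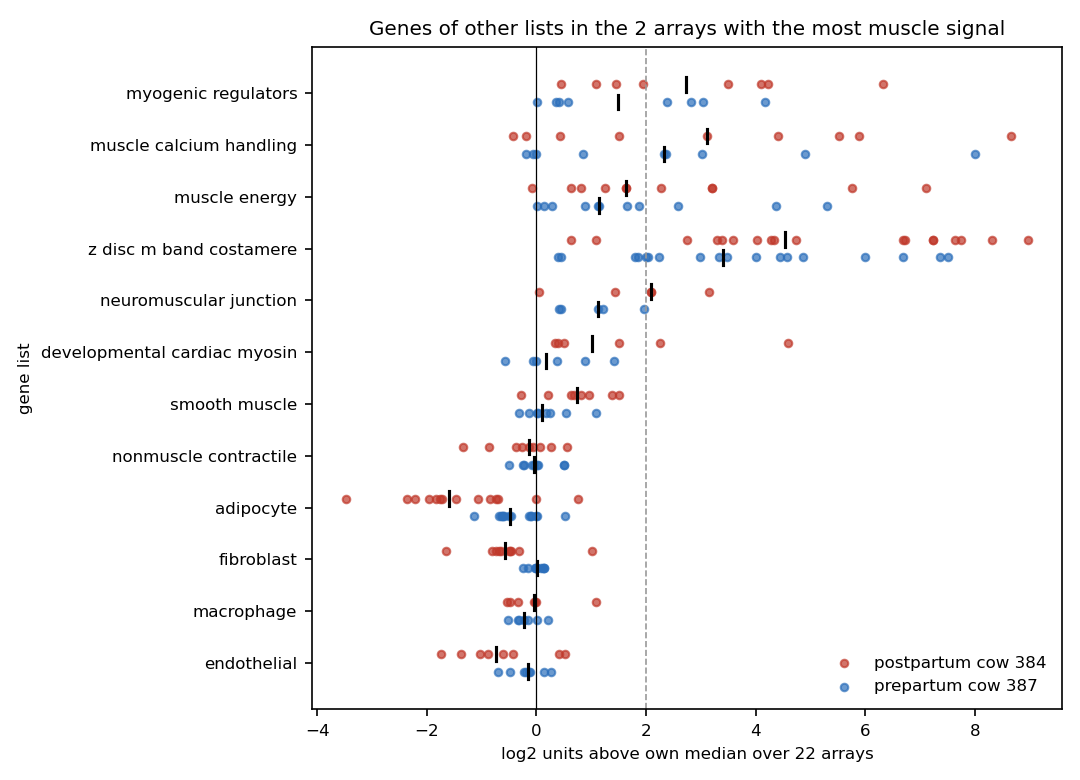
Level above own median over 22 arrays, in log2 units, of each measured gene (points) in 12 other gene lists (rows), in postpartum cow 384 (red) and prepartum cow 387 (blue), with black ticks at list medians and a dashed line at the 2 units that count as raised. Points of the first 6 lists, all of muscle, cross the dashed line, and none of the lower 6 do. The member TPM2 is left out of the smooth muscle list.

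Genes of other cell types were not raised in postpartum cow 384. None of 10 fibroblast, 7 macrophage, 8 endothelial, 5 erythrocyte, 5 epidermal or 3 brown adipocyte genes was raised there. Over the 10, 7, 7, 1, 2 and 2 genes kept, their list medians were -0.57, -0.04, -0.88, -1.28, -0.23 and -1.23. The erythrocyte value is HBB alone, and HBA, AHSP, ALAS2 and SLC4A1 were at -0.39, 0.03, 0.25 and 0.16. CIDEA, a kept brown adipocyte gene, is also on the adipocyte list. The 2 genes of each list farthest above their median in that array were PI16 (1.02) and LUM (-0.32) of fibroblasts, CD68 (1.09) and FCER1G (at its median) of macrophages, VWF (0.52) and KDR (0.42) of endothelium, ALAS2 (0.25) and SLC4A1 (0.16) of erythrocytes, PKP1 (0.47) and KRT10 (0.46) of epidermis, and PPARGC1A (-0.09) and UCP1 (-0.12) of brown adipocytes. In postpartum cow 382, where 8 member probe sets were raised, the fibroblast gene PI16 stood 2.30 above its median. The other fibroblast genes lay between -0.05 and 0.57 there. The erythrocyte genes HBB and ALAS2 stood 2.24 and 2.36 above their medians, whereas HBA, AHSP and SLC4A1 were at 0.01, -0.999 and 0.67. The HBB signal of 434 lay inside the 25.8 to 523 of the 17 low arrays. Those of PI16 (1442) and ALAS2 (37.65) exceeded the highest there (913 and 30.54). The part of these cell types in the muscle gene values of cow 382 was not tested. As a sign of RNA quality, the level of the 3 prime GAPDH control minus the 5 prime one was -0.10 in postpartum cow 384 and -0.05 in prepartum cow 387, against 0.14 to 1.26 in the other 20 arrays. The same difference for the actin controls was -0.07 and -0.12, against 0.999 to 3.76, but these probe sets are annotated as ACTA1 and so are members themselves. The part of RNA quality in the muscle gene values was not tested, and neither was the part of muscle RNA in the GAPDH and actin differences.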

How the data were processed

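The arrays measured total RNA of bulk subcutaneous adipose tissue on an Affymetrix bovine array. The deposited values are linear signal intensities made by the authors with the MAS5 algorithm, as the submitters' processing notes say. For its version, its settings and any genome build, the sources used here give nothing. A mean trimmed by 2% at either end came to 125 for each of the arrays. The cow number in the titles, and a series design that names paired sampling, paired the arrays. Deviations from the group means correlated at 0.18 to 0.43 within 10 cows and at -0.09 in cow 387. The prepartum array of cow 387 correlated at 0.64 with postpartum cow 384. The muscle genes were high in both of those arrays, and their part in these correlations was not tested. Separately, 4 probe sets that divide the other cows into high and low split the pair of cow 387. In cows 341, 330 and 384 the prepartum array also correlated better with another cow's postpartum array than with its own cow's. The values were 0.31, 0.24 and 0.30 with cows 338, 387 and 386, against 0.23, 0.18 and 0.21 within the cow. Titles also end in 1 of 2 codes of unstated meaning, which put 5 cows in set 1 and 6 in set 2.

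From the deposited intensities, log2 values were taken after adding 7.78, the 20th percentile of an array's signals in the median array, so fold changes of dim probe sets are understated. A filter on the mean, at the 40th percentile, kept the probe sets tested, 14410 of 24016 after 112 controls were left out. Counts of raised members used all 53 member probe sets, kept or not. The postpartum change was tested with limma 3.58.1 in R 4.3.3 (trend, cow as a block, Benjamini-Hochberg at 0.05). Gene names came from the platform annotation, updated through a RefSeq gene table. On simulated data for the postpartum change, over 14410 probe sets, the test found 94% of 100 that were shifted by 1 log2 unit and 99% of 100 shifted by 2, and 13 of its 206 calls were false. The shifted probe sets were drawn from all kept ones, whose median standard error was 0.12, against 0.77 in the kept members. These recovery rates therefore do not hold for most members. Named were all members, the 2 genes of each other list farthest above their median in postpartum cow 384, and genes a check was about; MSTN, MYOG, HBB, ADIPOQ, LEP, LPL and AGPAT2 were named after their values were seen. The members and 15 other gene lists were chosen with earlier results of these data known. Tables and figures used Python 3.11.15, pandas 2.3.3, numpy 2.4.6 and matplotlib 3.10.9. Alternatives varied the block, pseudocount, filter, normalization, array weights, variance model, array set, threshold, left-out cows, probe set of a gene and own median.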

Additional observations from a re-analysis of the deposited data

How the results depend on the processing

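The 494 probe sets called over all genes became 338 without the replicate block of cow, with no member called in either fit. They became 1076 with array weights, 291 with an ordinary paired test, 69 in array set 1 alone, 0 in set 2 alone by limma (1526 at an unadjusted p under 0.05), 1070 without cows 384 and 387, 950 without cows 384, 386 and 387, and 1048 at an adjusted p of 0.10. Without 1 cow they ran from 242 (without cow 382) to 969 (without cow 384), with 280, 263, 247, 314 and 265 without cows 330, 341, 346, 347 and 360. No member was called in 24 of 25 alternatives; without cows 384, 386 and 387 the count was 1, TNNC2. Without 1 cow the median member change ran from -0.12 to 0.80 (without cows 384 and 387), that of ACTA1 from -0.42 to 0.82, of MYH1 from -0.11 to 1.43 and of MB from -0.36 to 0.88, the low ends without cow 386, or 384 for MB, and the high ends without cow 387. The change of ACTA1 was -0.038 in set 2 alone, and in set 1 alone that of MYH1 was -0.003 and that of MB -0.15. None of these passed the test, and the cause was not tested.

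Raised probe sets in postpartum cows 384, 386 and 382 and prepartum cows 387 and 384 numbered 23, 17, 5, 23 and 16 with the filter on dim probe sets, and 19, 15, 4, 19 and 14 with 1 mean of kept probe sets a gene, which leave fewer probe sets to count. In postpartum cow 382 the count was 1 with a pseudocount of 32, 17 at a threshold of 1 log2 unit and 1 at a threshold of 3. Fast minus slow became 4.42 in postpartum cow 384 under both of these probe set rules, and 4.24 and 4.27 in prepartum cow 387, because only 4 slow genes are kept, of which MYH7 and TPM3 are represented by flat probe sets. With the own median over the other 8 cows or quantile normalization, the median share in prepartum cow 387 was 60.2% to 65.5% for fast, 48.3% to 53.3% for slow and 41.4% to 44.6% for shared probe sets. Where the low readings of a probe set lie near the pseudocount, as for MYH1 or MYL2, the level above its median is limited by it.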
